A study of Mus musculus with 4 samples.

Results

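Nucleotide synthesis and salvage enzymes were examined as 45 genes, taken by symbol from the deposited comparison of mouse morulae in which Nr1h2 was knocked down with control morulae. All 45 symbols had a row among the 13658 genes of that comparison. The genes were divided by known function into 22 of purine steps, 4 diphosphate kinases that serve every branch, 8 of pyrimidine steps and 11 of deoxynucleotide steps. The morula is the compacted embryo that precedes the blastocyst. Wild-type eggs were injected at the 1-cell stage with 4 to 5 pL of a small interfering RNA pool at 100 µM, directed either against Nr1h2 (siNr1h2) or against no mouse transcript (siNT, the control), and grown in M16 medium. Nr1h2 encodes the oxysterol-sensing nuclear receptor LXRβ. Polyadenylated RNA was profiled in 4 samples, 2 per group, with a full-length cDNA kit for small inputs. Neither the embryos pooled per sample nor the separateness of the replicates is labelled, so p-values measure only the spread between these samples, which may be technical.

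The data are 1 table of the authors' comparison, with no value for a single sample. Each gene has a mean normalized count over the 4 samples (its level), a log2 fold change of siNr1h2 over siNT with a standard error (SE), called the log2 change from here on, and p-values. A gene was called changed at an adjusted p under 0.05 (the authors' Wald test in DESeq2, Benjamini-Hochberg adjusted). In the authors' deposited table the targeted transcript, Nr1h2, was lower by a factor of 5.03 after siNr1h2 (95% confidence interval, CI, 3.89 to 6.50, adjusted p = 3.61e-31). All 10 morula markers looked for had a row, among them Nanog, Cdx2 and Cdh1, with a summed level of 9794. Of the markers of other sources, 3 of 12 for cumulus and granulosa cells had a row (summed level 34.5), 4 of 7 for blood and immune cells (182, mostly Cd68) and 0 of 6 for sperm. Krt8 was the only marker of these lists that was called (lower), and the 3 cumulus and granulosa rows ran from -1.56 to -0.74 (log2 change) in the authors' deposited table without a call. Their part in the results was not tested.

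Cells make purine nucleotides by building the ring stepwise on phosphoribosyl pyrophosphate (PRPP) until inosine monophosphate (IMP) is formed, which is then converted to AMP and GMP. Pyrimidines are made the other way round, with the ring closed before the ribose phosphate is attached, giving UMP and then CTP. Salvage enzymes return free bases and nucleosides to the nucleotide pool, and ribonucleotide reductase turns ribonucleotides into the precursors of DNA. Cleaving embryos divide without growth, and each S phase draws on these pools.

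Few of these genes changed detectably between the groups. Of the 45, 1 was called in the authors' deposited table, Prps1, which was lower in siNr1h2, and 44 were not called. That is 2.22% of the members, beside 1.98% of the 12069 genes tested (239 called, 184 lower and 55 higher). That split depended on the scaling, with 142 lower and 82 higher after centring on genes with levels of 500 or more. At an unadjusted p under 0.05, 5 members lay lower (Prps1, Paics, Hprt, Ak6 and Ppat, all listed under purine steps) and 2 higher (Impdh1 and Ctps). These 7 make 15.6% of the members, beside 13.3% of all genes tested. By direction, 11.1% of members were lower and 4.44% higher at that level, beside 7.31% and 5.97% of all genes tested.

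Below 0 lay 28 of the 45 log2 fold changes, and the median was -0.07. Over all genes with an adjusted p, 5961 of 12069 lay below 0, and the median was 0.00416. Abundant genes lay lower as a whole, since among the 3755 genes with levels of 500 or more the share below 0 was 57.9% and the median -0.04. The 30 members with such levels had 60.0% below 0 and the same median of -0.04. After centring on those abundant genes 24 of the 45 members lay below 0, beside 5335 of the 12069 genes with an adjusted p. After centring on ribosomal protein genes 34 of the 45 did, beside 7678 of the 12069, so all genes shifted with the scaling.

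**Figure D1:**
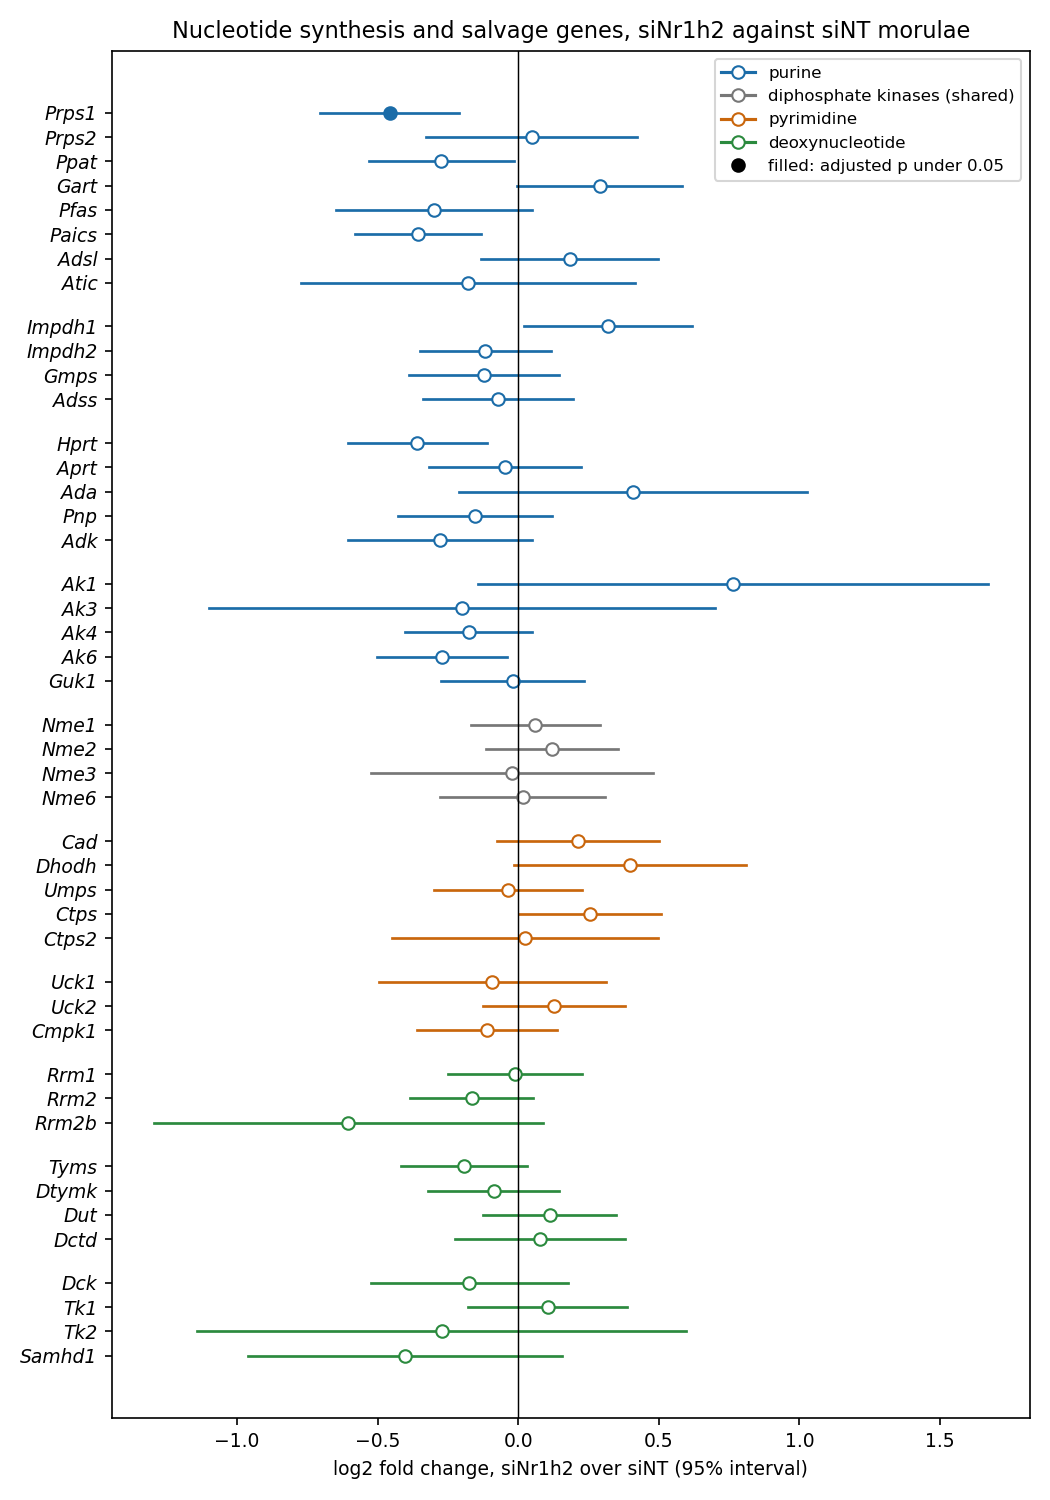
Log2 fold change of siNr1h2 over siNT (x axis) for each of the 45 genes (y axis), in pathway order, with points for the deposited estimates, bars for their 95% intervals and colours for the branch. Prps1, the filled point at -0.46, is the only one called, and the widest intervals belong to Ak1, Ak3, Tk2 and Rrm2b, genes of low level.

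The precision of the comparison set what could be seen. For 32 of the 45 members (71.1%) the 95% interval lay wholly within a change of 1.5 times in either direction. Over all genes with an adjusted p that share was 40.7%, but their median level was 201 against 1454 for the members. At levels of 500 or more it was 90.0% of members (27 of 30) and 86.4% of 3755 genes. The SE ran from 0.11 for Rrm2 to 0.46 for Ak1. At the weakest Wald statistic called among all genes, Rrm2 needed an estimated change of 1.29 times and Ak1 one of 2.88 times. These are sizes that the estimate had to reach, and they set no limit on the true change.

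The steps of the purine branch that build the ring held the called gene. Prps1 encodes a PRPP synthetase, which supplies the ribose phosphate for purines, pyrimidines and salvage alike, and it was counted here under purine steps. It had a mean normalized count of 10671 and a log2 change of -0.46 ± 0.13 (SE) in the authors' deposited table, which is 1.37 times lower (95% CI 1.16 to 1.63, adjusted p = 0.0228). The call was lost with X-linked genes centred on their own median (adjusted p = 0.143), under Holm adjustment and at a threshold of 0.01. It was also lost with a minimum fold of 1.5 and with a t distribution. The losses at 0.01 and at 1.5 follow directly from the adjusted p and the fold given above. Under the t distribution 0 genes were called, Nr1h2 included, so that loss says nothing about Prps1 in particular. The call was kept without the low-count filter, at levels of at least 50, and after centring on abundant genes (adjusted p = 0.0486, Wald test on the recentred DESeq2 values). Centring on ribosomal protein genes kept it too (adjusted p = 0.000894, same test). If the deposited mean is the average of both groups, the fold of 1.37 corresponds to about 12348 normalized counts in siNT and 8993 in siNr1h2. Whether the samples of the groups overlapped cannot be read from the table. Its paralogue Prps2, which codes for the same activity, had a level of 309 and a log2 change of 0.05 ± 0.19 in the authors' deposited table (95% CI of the siNr1h2 to siNT ratio, ratio CI, 0.797 to 1.34). The difference between the paralogues was not tested. Prps1l3, a gene of the same family with a level of 892, stood at -0.15 ± 0.15 in the authors' deposited table, and reads of near-identical copies can be shared among these genes, so the Prps1 value is uncertain to that extent.

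Paics and Ppat came next in this branch, and neither was called. Ppat encodes the amidotransferase of the committed step of purine synthesis, and Paics a bifunctional enzyme of later ring steps. Paics had a level of 5893 and a log2 change of -0.36 ± 0.11 in the authors' deposited table (1.28 times lower, 95% CI 1.10 to 1.5, adjusted p = 0.0709). Ppat had a level of 2809 and a log2 change of -0.27 ± 0.13 in the authors' deposited table (1.21 times lower, 1.01 to 1.44, adjusted p = 0.338). The genes are neighbours that are transcribed in opposite directions. In RefSeq (GRCm38.p6) the annotated Paics start at position 76951302 of chromosome 5 and the annotated Ppat start at 76951578 lie so that their first exons overlap head to head, sharing 272 exon bases in GENCODE, or 10.9% of the exon bases of Paics and 6.83% of those of Ppat. The library kit does not mark strand, so reads from the shared bases cannot be assigned to either gene, and the 2 values are not fully independent.

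The other ring-building genes lay on both sides of 0 in the authors' deposited table. Pfas, a glutamine-using enzyme of ring building, stood at a log2 change of -0.30 ± 0.18 there, and Atic, which closes the ring to IMP, at -0.18 ± 0.30. Gart, a trifunctional enzyme of early ring steps, had a log2 change of 0.29 ± 0.15 in the authors' deposited table (p = 0.0521 from the Wald test in DESeq2, adjusted p = 0.386). Adsl, the lyase used both for IMP and for AMP, stood at 0.18 ± 0.16 in the authors' deposited table. The 8 genes of this step had 5 values below 0 and a median of -0.23.

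From IMP onwards no gene passed the test. Impdh1 and Impdh2 encode the IMP dehydrogenases that open the way to GMP. Impdh1 had a log2 change of 0.32 ± 0.15 in the authors' deposited table (1.25 times higher, 95% CI 1.01 to 1.53, p = 0.0371, adjusted p = 0.338, Wald test in DESeq2). Impdh2, the more abundant of the pair at 2544 against 377 normalized counts per kb of transcript, stood at -0.12 ± 0.12 in the authors' deposited table (ratio CI 0.785 to 1.08). Gmps, which makes GMP, and Adss, which starts the branch to AMP, stood at -0.12 ± 0.14 and -0.07 ± 0.14 in the authors' deposited table.

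Purine salvage held the most abundant transcript of all 45. Hprt encodes the phosphoribosyltransferase that salvages hypoxanthine and guanine. Its mean normalized count was 69083 and its log2 fold change -0.36 ± 0.13 in the authors' deposited table (1.28 times lower, 95% CI 1.08 to 1.52, p = 0.00458, adjusted p = 0.121, Wald test in DESeq2). By the same reading as for Prps1, this corresponds to about 77625 normalized counts in siNT and 60541 in siNr1h2, without a call. Aprt, the matching enzyme for adenine, had a level of 7280 and a log2 change of -0.05 ± 0.14 in the authors' deposited table, with a ratio CI of 0.803 to 1.17. Pnp, which splits inosine and guanosine, stood at -0.16 ± 0.14 and Adk, the adenosine kinase, at -0.28 ± 0.17 in the authors' deposited table. In GENCODE Pnp shares 23.3% of its exon bases with the gene model Gm49342 on the same strand. Exon bases shared with another annotated gene were found for 16 of the 45 members. Ada, the adenosine deaminase, had a level of only 88.1 and a log2 change of 0.41 ± 0.32 in the authors' deposited table.

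The monophosphate kinases, which carry AMP and GMP to diphosphates, were also not called. Ak6, an adenylate kinase of the nucleus, had a level of 4790 and a log2 change of -0.27 ± 0.12 in the authors' deposited table (1.21 times lower, 95% CI 1.03 to 1.42, adjusted p = 0.273). Taf9, a general transcription factor gene in the same locus, shares 48.1% of the exon bases of Ak6 on the same strand and stood at -0.34 ± 0.14 in the authors' deposited table (adjusted p = 0.210), so these rows cannot be told apart cleanly. Guk1, the guanylate kinase, stood at -0.02 ± 0.13 in the authors' deposited table, and Ak4, of the mitochondrial matrix, at -0.18 ± 0.12. Ak1, the cytosolic form typical of muscle, had the largest value of the 45 in size, 0.76 ± 0.46, and Ak3 stood at -0.20 ± 0.46 in the authors' deposited table. Both had levels near 35, and the ratio CIs of 0.906 to 3.18 and 0.467 to 1.62 leave their direction undetermined.

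For the called gene Prps1 and for Hprt, the most abundant, the 250 bases upstream of the RefSeq start are shown here, because these genes carry the only call and the largest level of the group. The windows are chrX:140456353-140456602 for Prps1 and chrX:52987828-52988077 for Hprt (GRCm38.p6, plus strand, no annotated exon within). Capitals mark the matches to the motifs searched on both strands, which were the GC box GGGCGG, the CCAAT box CCAAT, the E-box CACGTG, the E2F core TTGGCGC and the LXR half-site AGGTCA.
Prps1: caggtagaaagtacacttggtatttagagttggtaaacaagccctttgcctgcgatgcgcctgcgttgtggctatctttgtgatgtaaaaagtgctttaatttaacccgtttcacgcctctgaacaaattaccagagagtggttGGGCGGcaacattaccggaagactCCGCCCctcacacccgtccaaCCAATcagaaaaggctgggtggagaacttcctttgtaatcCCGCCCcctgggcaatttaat
Hprt: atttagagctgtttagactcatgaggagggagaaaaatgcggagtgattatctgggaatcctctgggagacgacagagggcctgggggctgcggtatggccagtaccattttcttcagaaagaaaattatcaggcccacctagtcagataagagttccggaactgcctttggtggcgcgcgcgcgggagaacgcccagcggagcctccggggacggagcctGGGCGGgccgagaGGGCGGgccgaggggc
The Prps1 window held 3 GC boxes and 1 CCAAT box at 48.4% G and C, and the Hprt window 2 GC boxes at 59.6%. Neither window held an LXR half-site in these letters. Upstream of Paics, where the whole window is annotated as exon of Ppat, 2 short stretches are shown, each a match with 10 bases on either side. They are chr5:76951089-76951114 around an E-box and chr5:76951269-76951293 around a CCAAT box (plus strand), and the boxes themselves begin 203 and 23 bases before the Paics start.
Paics E-box: cctcggaaagCACGTGgagggacctg
Paics CCAAT box: ccgctctccgCCAATcagctagggc

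Of the 45 members, 42 had a promoter in the RefSeq table. The GC box was in 76.2% of their 250-base windows, against 57.7% of the 10769 promoters of genes in the comparison and 32.9% of all 27025. An E-box was in 6 (Atic, Dtymk, Impdh2, Nme1, Paics and Tyms), or 14.3% against 8.39% and 6.05%. The CCAAT box was in 33.3% (37.0% and 34.5%) and the E2F core in 3 of them, Adss, Dtymk and Nme3, or 7.14% (3.63% and 2.05%). An LXR half-site was in 3, Ak1, Prps2 and Uck2, or 7.14%, against 11.0% and 13.8%, and the direct repeat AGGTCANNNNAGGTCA, the arrangement LXR dimers are known to bind, was in 0 of the 42, in 0 of the 10769 and in 3 of all 27025. These are matches of letters and do not locate bound sites.

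The called gene is X-linked. Prps1, Hprt, Prps2 and Ctps2 are the 4 members on chromosome X, which stood at -0.46, -0.36, 0.05 and 0.02 (log2 change) in the authors' deposited table. X-linked genes as a whole lay lower, with a median log2 change of -0.11 over 506 genes against 0.01 over the 13152 others, and 19 of the 433 tested were called lower and 1 higher. That is 4.39% lower, beside 165 of 11636 (1.42%) for genes not on chromosome X, of which 54 were called higher. At levels of 500 or more the medians were -0.14 over 130 X-linked genes and -0.04 over 3625 others. In that set 7 X-linked genes lay lower than Prps1 and 16 lower than Hprt. The 8 Y-linked genes had 6 values above 0 and a median of 0.29. Kdm5d was called higher (2.08 ± 0.60 in the authors' deposited table, adjusted p = 0.0372, Wald test in DESeq2) at a level of only 23.4. Ddx3y (level 746), Eif2s3y (549) and Uty (75.5) stood at 0.33 ± 0.17, 0.26 ± 0.17 and 0.23 ± 0.33 without a call. Xist, the RNA of the inactive X, stood at 0.12 ± 0.14 in the authors' deposited table. With X-linked genes centred on their own median, a variation added once the data had been seen, Prps1 stood at -0.35 (adjusted p = 0.143, Wald test on the recentred DESeq2 values) and Hprt at -0.25 (adjusted p = 0.374). Then 0 of the 45 members were called, and 7 had an unadjusted p under 0.05. The sex of the embryos in each sample is not in the labels, and its part in these values was not tested. Among the 41 autosomal members 0 were called (Wald test in DESeq2), and 3 lay lower and 2 higher at an unadjusted p under 0.05. Of all genes tested 1.98% were called, and 7.31% lay lower and 5.97% higher at that level.

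**Figure D2:**
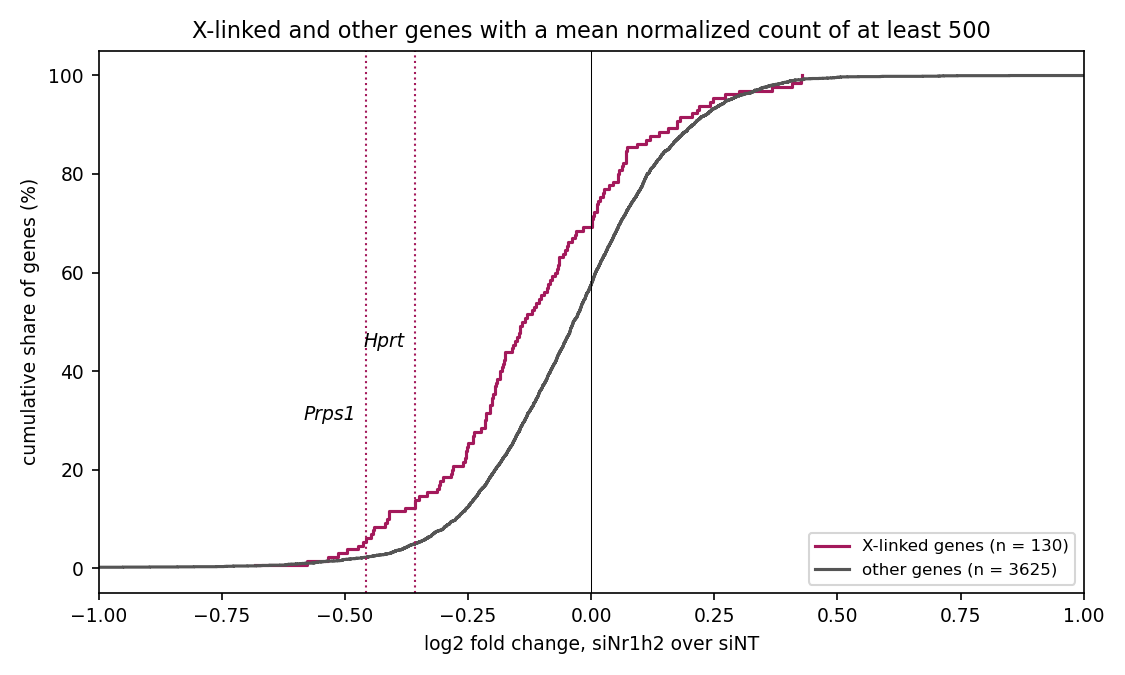
Cumulative share of genes in percent (y axis) against log2 fold change of siNr1h2 over siNT (x axis), for 130 X-linked and 3625 other genes with levels (mean normalized counts) of 500 or more. The X-linked curve lies to the left over most of its course, and dotted lines mark Prps1 at -0.46 and Hprt at -0.36 within its lower part.

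Diphosphate kinases of the Nme family pass phosphate between nucleoside diphosphates and triphosphates of every base. Of the 4 members Nme1, Nme2, Nme3 and Nme6, 0 were called and 0 had an unadjusted p under 0.05 (Wald test in DESeq2). Over all genes tested, 1.98% were called and 13.3% had such a p. All 4 intervals lay within a change of 1.5 times. Nme1 had a level of 20218 and a log2 change of 0.06 ± 0.12 in the authors' deposited table (ratio CI 0.890 to 1.22). Nme2 had a level of 14545 and a log2 change of 0.12 ± 0.12 in the authors' deposited table (0.923 to 1.28). These neighbours are close copies and are bridged by an annotated read-through model, Gm20390, that covers 48.9% of the exon bases of Nme2, so reads may be split between them. Nme3 stood at -0.02 ± 0.26 and Nme6 at 0.02 ± 0.15 in the authors' deposited table.

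Of the pyrimidine genes 0 of 8 were called and 1 had an unadjusted p under 0.05 (Wald test in DESeq2). The shares of all genes tested were 1.98% and 13.3%. The de novo genes lay mostly above 0 in the authors' deposited table, 4 of 5 with a median of 0.21, beside a median of -0.23 for the purine ring genes, and the difference between branches was not tested. After centring on ribosomal protein genes 3 of the 5 lay above 0. Ctps, which turns UTP into CTP, had a level of 1512 and a log2 change of 0.25 ± 0.13 in the authors' deposited table (1.19 times higher, 95% CI 1.00 to 1.42, p = 0.0489, adjusted p = 0.372, Wald test in DESeq2). Its paralogue Ctps2 stood at 0.02 ± 0.24 at a level of 151. Cad, the multifunctional protein of the opening steps, had a log2 change of 0.21 ± 0.15, and Dhodh, the mitochondrial dehydrogenase that follows it, the largest value of the branch at 0.40 ± 0.21 (1.32 times, 95% CI 0.989 to 1.75, adjusted p = 0.406), in the authors' deposited table. Umps, which completes UMP, stood at -0.04 ± 0.13 in the authors' deposited table.

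Pyrimidine salvage and phosphorylation gave values close to 0. The uridine-cytidine kinases Uck2 and Uck1 stood at 0.13 ± 0.13 and -0.09 ± 0.21 (log2 change) in the authors' deposited table. Cmpk1, the kinase of UMP and CMP and the most abundant gene of the branch by mean normalized count (1702), stood at -0.11 ± 0.13 in the authors' deposited table, with a ratio CI of 0.779 to 1.10. All 3 intervals lay within a change of 1.5 times.

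None of the 11 deoxynucleotide genes was called, and 0 had an unadjusted p under 0.05 (Wald test in DESeq2). Beside these counts stand 1.98% and 13.3% of all genes tested. The genes of ribonucleotide reductase are Rrm1, the catalytic subunit, Rrm2, the small subunit of S phase, and Rrm2b, the small subunit induced by DNA damage. Rrm1 had a level of 2693 and a log2 change of -0.01 ± 0.12 in the authors' deposited table (ratio CI 0.841 to 1.17). Rrm2 had a level of 7913 and a log2 change of -0.16 ± 0.11 in the authors' deposited table (0.766 to 1.04, adjusted p = 0.554). Rrm2b had the lowest value of the 45, -0.60 ± 0.35, at a level of 68.9 in the authors' deposited table (0.407 to 1.06, adjusted p = 0.461). Rrm1 turned positive, at 0.03, after centring on genes with a level of at least 500.

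Thymidylate and dUTP genes were measured with narrow errors, and all 4 intervals lay within a change of 1.5 times. Tyms, the thymidylate synthase, had a level of 7223 and a log2 change of -0.19 ± 0.11 in the authors' deposited table (ratio CI 0.749 to 1.02, p = 0.0922 from the Wald test in DESeq2, adjusted p = 0.475). Dtymk, which phosphorylates its product, stood at -0.09 ± 0.12 in the authors' deposited table. Dut, which removes dUTP, and Dctd, the deaminase that supplies dUMP, stood at 0.11 ± 0.12 and 0.08 ± 0.15 in the authors' deposited table.

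The salvage kinases and the hydrolase of this branch varied more in level than in fold change. Tk1, the cytosolic thymidine kinase of S phase, had a level of 2157 and a log2 change of 0.11 ± 0.14 in the authors' deposited table. Tk2, its mitochondrial counterpart, had a level of 37.9 and stood at -0.27 ± 0.44 there. Dck, the deoxycytidine kinase, stood at -0.17 ± 0.18 and Samhd1, which hydrolyses deoxynucleoside triphosphates, at -0.40 ± 0.29 in the authors' deposited table (Samhd1 ratio CI 0.513 to 1.11). The 11 genes had a median of -0.16, and 8 lay below 0.

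**Figure D3:**
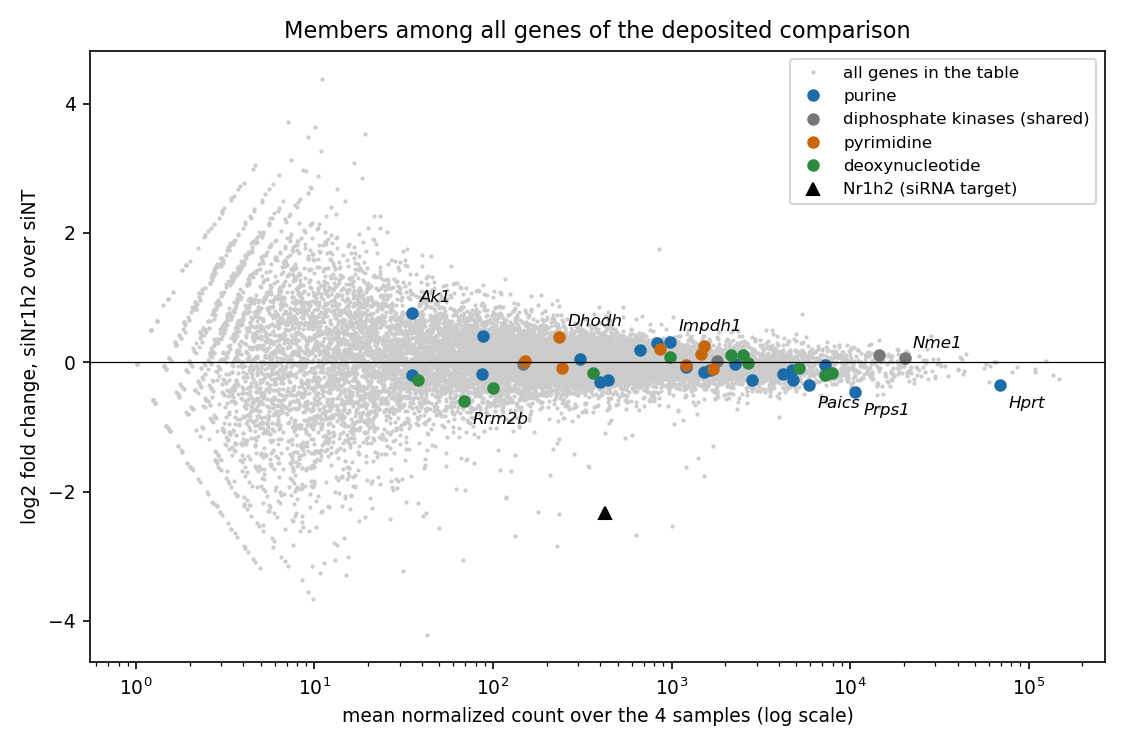
Log2 fold change of siNr1h2 over siNT (y axis) against mean normalized count over the 4 samples (x axis, log scale) for all 13658 genes in grey, the 45 members in colour by branch and Nr1h2 as a triangle. The members sit inside the grey cloud at every level, with Prps1 at -0.46 and Hprt at -0.36 among the abundant genes, while Nr1h2 lies far below at -2.33.

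Levels of the 45 transcripts were compared per length, as mean normalized count per kb of the longest annotated principal transcript. The order depends on that choice of transcript. For Nme1 and Nme2 the lengths used were 3.18 and 1.01 kb, at levels of 20218 and 14545. The value per kb is an average over both groups without a spread, so no order between close neighbours is implied. Hprt stood highest at 53594 per kb, followed by Nme2 (14372), Aprt (8575), Nme1 (6356), Prps1 (5430) and Dtymk (5141). Hprt and Aprt of purine salvage and the diphosphate kinases Nme1 and Nme2 thus held the top 4 places. The other genes of these groups ranked lower, with Nme6 at place 13, Pnp at 21, Adk at 27, Nme3 at 29 and Ada at 38. Some paralogues were far apart in level. Prps1 stood at 5430 per kb against 83.5 for Prps2, Ctps at 559 against 45.02 for Ctps2, Rrm2 at 3608 against 15.1 for Rrm2b, and Tk1 at 1498 against 15.7 for Tk2. Others were closer, such as Uck2 at 307 and Uck1 at 121 per kb. In the purine ring chain Paics reached 2374 per kb, whereas Pfas and Atic stood at 62.7 and 30.6. The genes at the foot of the order were Ak3 (12.5), Rrm2b, Tk2 and Ak1 (16.9).

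**Figure D4:**
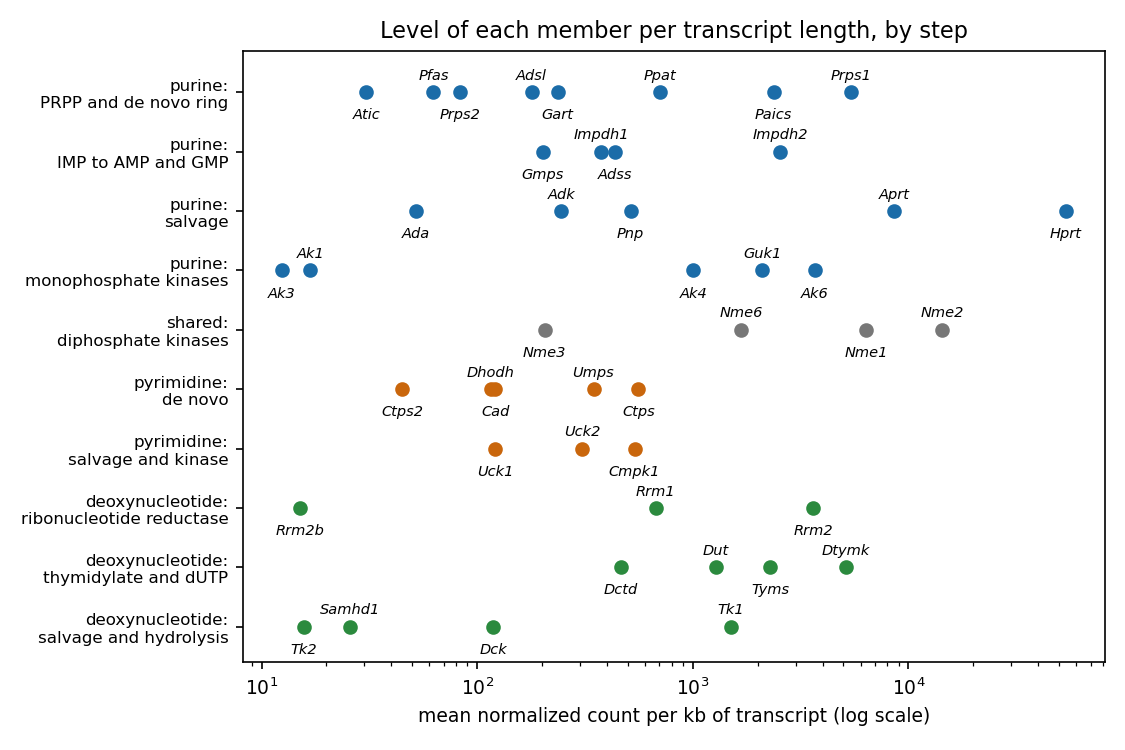
Mean normalized count per kb of the longest principal transcript (x axis, log scale) for each gene, with 1 row of points per step (y axis) coloured by branch. Hprt lies farthest to the right at 53594 per kb, and the paralogues Prps1 and Prps2, at 5430 and 83.5 per kb, lie far apart in the top row.

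Other genes of nucleotide metabolism, listed by role, gave 2 calls. Of 48 such genes 40 had a row and 35 an adjusted p, of which 1 was called lower, 1 higher and 33 were not called. That is 5.71% of those tested, beside 1.98% of all genes tested. Nme4, the diphosphate kinase of mitochondria, had a level of 2355 and was 1.40 times higher in siNr1h2 in the authors' deposited table (95% CI 1.16 to 1.69, log2 change 0.49 ± 0.14, adjusted p = 0.0269). After centring on ribosomal protein genes it stood at 0.38 (adjusted p = 0.0908) and was not called. Pnp2, a close copy of Pnp beside it in the genome, was lower by a factor of 3.49 in the authors' deposited table (95% CI 1.67 to 7.30, adjusted p = 0.0480) at a level of only 30.8, and reads may be split with Pnp. After centring on abundant genes its adjusted p was 0.0592. Xdh, the xanthine dehydrogenase of purine breakdown, stood at -0.77 ± 0.30 (adjusted p = 0.188) and the nucleotidase gene Nt5c at 0.33 ± 0.14 (adjusted p = 0.273) in the authors' deposited table.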

How the data were processed

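The 4 morula samples were processed by the submitters, whose processing notes name STAR, HTSeq 0.12.4, RSEM, Cufflinks 2.2.1, edgeR, DESeq2 and build mm9, with no role, order or parameters. The authors deposited 1 DESeq2 table. Per the file headers each gene has a mean of normalized counts (a signal), a log2 fold change with its standard error, a Wald statistic (a score), a p-value and an adjusted p-value, all computed by the authors. Single samples have no values there, so their depth is unknown; per-sample columns left unused number 0. Benjamini-Hochberg adjustment over 12069 genes gave back the adjusted p. Genes without one, 1589 in number, had means up to 8.00.

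The members and lists were chosen with earlier results of these data known. Every member may be named; of other pathway genes, those called and the 4 with the smallest p. Intervals are 1.96 standard errors. Chromosomes and promoters came from RefSeq and lengths and exon overlaps from GENCODE M21, both of GRCm38, by symbol, and no coordinates of the table's own build are given. Python 3.11.15, pandas 2.3.3 and scipy 1.17.1 were used, and the adjustment was tested on simulated data. Other thresholds, filters, adjustments, centrings and a t distribution were tried.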

Additional observations from a re-analysis of the deposited data

How the results depend on the processing

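No paired analysis was possible because the table holds no values per sample, and for the same reason no replicate could be left out. As reported, 239 of the 12069 genes tested and 1 of the 45 members (Prps1) were called. An adjusted p threshold of 0.01 gave 109 and 0, and a threshold of 0.1 gave 395 and 2 (Paics added). Holm adjustment gave 49 and 0, and a minimum fold of 1.5 gave 175 and 0. Prps1 stayed the 1 member called without the low-count filter (214 genes), with a mean of at least 50 (222) and centred on abundant genes (224). A t distribution with 2 degrees of freedom gave 0 and 0, with 68 genes and 0 members at an unadjusted p under 0.05, and as Nr1h2 itself was then not called, this count says nothing about stability. Centring on ribosomal protein genes, chosen after the data were seen, moved the median of all genes with an adjusted p to -0.10. It gave 484 calls among the 12069 genes (448 lower, 36 higher) and 4 among the 45 members, Prps1, Paics, Hprt and Ak6. X-linked genes centred on their own median gave 223 and 0. The member calls were all of genes listed under purine steps, so the purine counts were the same in each case. The pyrimidine, deoxynucleotide and diphosphate kinase counts were 0 under every alternative. Prps1 was counted under purine steps although its product serves every branch, so this split rests partly on that placement. The 2 other pathway genes (Nme4 and Pnp2) became 0 at the 0.01 threshold, under Holm adjustment and under the t distribution, and 1 without the low-count filter, with a mean of at least 50 and under centring on abundant genes (Nme4), and 1 with a fold of 1.5 or centring on ribosomal protein genes (Pnp2). Centring on abundant genes reversed the sign of 4 members near 0, to 0.0180 for Guk1, 0.0166 for Nme3, 0.00147 for Umps and 0.0260 for Rrm1. Centring on ribosomal protein genes reversed 6, to -0.0597 for Prps2, -0.0462 for Nme1, -0.0910 for Nme6, -0.0832 for Ctps2, -0.0301 for Dctd and -0.00211 for Tk1. The cause of these shifts was not tested beyond the construction of each alternative.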
